A study of Mus musculus with 12 samples.

Results

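The comparison described here is that of Western diet (WD) with control diet (CD) in the offspring of mothers kept on CD, in mouse aortic endothelial cells. The labels name the cells MAECs, and the spelling out of CD as control diet is a reading, since the labels leave it abbreviated. It rests on 6 of the 12 libraries of the series, 3 of the group CD_CD (CD mothers, CD offspring) and 3 of the group CD_WD (CD mothers, WD offspring), and covers all 10655 genes of the deposited table. Both groups share the maternal diet, and the offspring of CD_WD had returned to WD for 4 weeks, per the series text. Sample titles join both diets, and the order in that text was followed in taking the maternal diet to come first. The labels give no genotype, strain, sex, age, batch or sorting step, so that diet and any batch that followed it cannot be told apart. Nothing in them ties the 3 libraries of a group to separate animals, and p-values here measure only the spread between libraries of a group, which may be technical. That spread was estimated over all 12 libraries of the series, those of WD mothers included.

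The aortic endothelium is the single cell layer that lines the vessel lumen. It senses blood flow through receptors and transcription factors such as Klf2 and Klf4, makes nitric oxide through Nos3, and lies on a basement membrane of type IV collagen and laminin above the smooth muscle of the media. In atherosclerosis, lipoproteins held in the wall go together with activated endothelium, entry of monocytes and other leukocytes, and macrophages that take up lipid. Gene lists for these cells and pathways, 35 in all, are described below by how many of their measured members passed the test, to be read against the 9.46% of all genes called higher and the 5.55% called lower.

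The libraries held 16966696 to 19670570 reads in CD_CD and 7184178 to 18013966 in CD_WD. Every gene of the table had at least 3 reads in CD_CD replicate 3, while 172 and 55 had none in CD_CD replicates 1 and 2. A gene without reads in CD_CD replicate 3 is therefore in none of the counts below. The share of reads on the 20 most read genes was 12.9 to 14.3% in CD_CD and 35.4 to 46.2% in CD_WD. The authors' size factors, by which the reads were divided, were 2.45 to 2.88 in CD_CD and 0.394 to 1.16 in CD_WD, so that 1 read counted as 0.347 to 0.409 normalised reads in the first group and as 0.861 to 2.54 in the second. CD_WD replicate 1 stood apart from the other CD_WD libraries: its log2 values correlated at 0.750 and 0.698 with replicates 2 and 3, which correlated at 0.911 with each other. List medians that moved by over 1.5 times without it are given both ways. CD_WD replicate 3 correlated more with CD_CD replicate 3 (0.774) than with CD_WD replicate 1. The first principal component of the 6 libraries held 59.7% of their variance and separated the groups, but also spread the CD_WD libraries. On it CD_WD replicates 1 to 3 stood at 154, 56.2 and 32.9, and CD_CD replicates 1 to 3 at -101, -90.3 and -51.9.

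Of the 10655 genes, 1008 (9.46%) were higher and 591 (5.55%) lower in CD_WD, at an adjusted p under 0.05 in limma. The median log2 fold change, CD_WD minus CD_CD, was 2.22 among the genes that were higher and -2.54 among those that were lower, against -0.02 over all genes. The 3 libraries of each group did not overlap for 21.9% of all genes in the upward and 21.6% in the downward direction, and 1590 of the 1599 called genes were among them. With the reads scaled to each library's total in place of the authors' size factors, the median of all genes moved to -1.45, and 2.73% of genes were called higher and 38.5% lower, so that the share of higher genes among the calls, 63.0% by the size factors, rests on the scaling. All 291 genes higher by total reads were among the 1008, and all 591 lower genes were lower by total reads as well. Without CD_WD replicate 1, 8.51% of genes were higher and 3.83% lower. Without CD_CD replicate 1 the numbers were 510 higher and 188 lower, and without CD_CD replicate 2 they were 518 and 187; without CD_CD replicate 3 the lower genes numbered 311. In all 6 fits that left out 1 library, 439 of the higher and 160 of the lower genes passed.

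**Figure D1:**
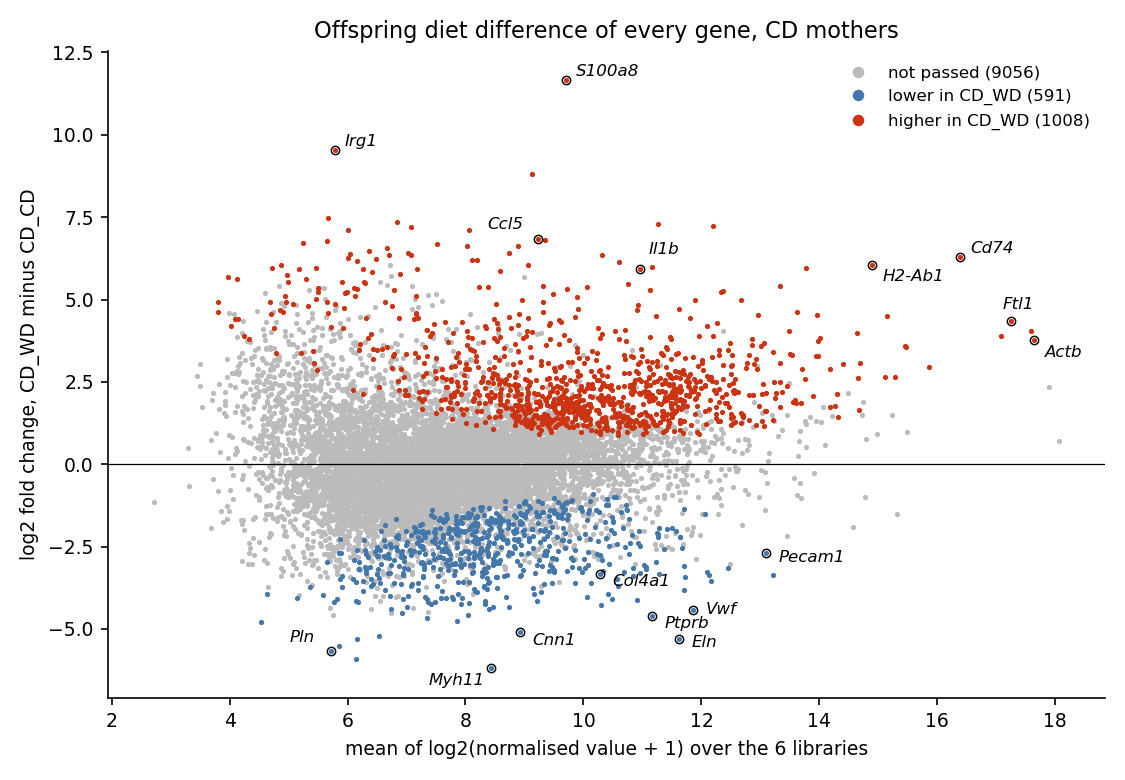
Log2 fold change, CD_WD minus CD_CD, of each of the 10655 genes (vertical axis) against its mean log2(normalised value + 1) over the 6 libraries (horizontal axis). Red points are the 1008 genes called higher, blue points the 591 called lower and grey points those that did not pass; genes named in the text are circled.

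The alarmins of myeloid cells led the rises. S100a8 (chr3:90668978-90670035, GRCm38, plus strand), which encodes a subunit of calprotectin made by neutrophils and monocytes, stood at 0.694, 31.1 and 56.8 normalised reads in CD_CD replicates 1 to 3 and at 39847, 148746 and 18062 in CD_WD. Every CD_WD library thus lay far above every CD_CD library, and the log2 fold change was 11.66 ± 1.57 (SE, n = 3 against 3; limma adjusted p = 0.00127). S100a9, the other subunit, read 45.5, 22.1 and 16.6 in CD_CD and 8937, 36330 and 5132 in CD_WD (log2 fold change 8.80 ± 1.38, limma adjusted p = 0.00224). Of 18 measured genes of neutrophils and inflammatory monocytes, 11 were higher and none lower, with a median log2 fold change of 5.14 against -0.02 over all genes. Among them were Plac8 with 5.47 ± 0.61 (limma adjusted p = 0.00054), Ly6c2, a surface marker of inflammatory monocytes, with 6.63 ± 0.92 (0.00129), and Retnlg, a resistin-like protein of neutrophils, with 5.33 ± 0.95 (0.00374). The list as a whole took 0.0482 to 0.0557% of the reads in CD_CD and 0.392 to 1.77% in CD_WD, with the highest share in CD_WD replicate 2. Its counts by total reads were 8 higher and 1 lower, with a median of 3.81. In these bulk libraries, a change in the number of cells of a type and a change in the RNA per cell cannot be told apart.

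Genes of interleukin 1 and NF-kB signalling rose with them. Of 23 measured, 12 were higher and 1, the receptor Il1r1, lower, with a median of 2.54 (7 to 14 higher when 1 library was left out, 7 without CD_CD replicate 1, 8 without CD_CD replicate 3 and the most without CD_WD replicate 1). The counts by total reads were 7 higher and 2 lower, with a median of 1.10. Il1b, the secreted cytokine, read 266, 667 and 90.9 in CD_CD and 7053, 34696 and 15354 in CD_WD (log2 fold change 5.94 ± 1.15, limma adjusted p = 0.00539). Irg1, the gene of itaconate synthesis in activated macrophages, had no read in CD_CD replicates 1 and 2 and 7.3 normalised reads in replicate 3, against 520, 2647 and 2407 in CD_WD (limma adjusted p = 0.00216). Tnfaip2, a TNF-induced gene, rose by 3.81 ± 0.68 (0.00374) and Nfkbie, an inhibitor of NF-kB, by 2.54 ± 0.47 (0.00457), the last without passing by total reads. Il1r2, the decoy receptor, and Il1a also passed, but not in every fit: without CD_CD replicate 1 the adjusted p was 0.0975 and 0.0947, without CD_WD replicate 2 that of Il1r2 was 0.0637, and without CD_CD replicate 3 and CD_WD replicate 3 that of Il1a was 0.0548 and 0.0577. Il1r1 (limma adjusted p = 0.0441) was lost without CD_CD replicates 1, 2 and 3 (0.184, 0.111 and 0.0624) and CD_WD replicates 1 and 2 (0.116 and 0.109). Tnf and Il6 did not pass with all libraries (limma adjusted p = 0.0991 and 0.383) and passed without CD_WD replicate 1 (0.00808 and 0.0181).

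Chemokines formed the third group of this kind, with 13 of 25 measured members higher, none lower and a median of 3.32. The counts by total reads were 9 higher and 2 lower, with a median of 1.88. Ccl5, which attracts T cells and monocytes, had the smallest spread: 46.1, 67.8 and 53.1 in CD_CD against 13356, 5528 and 3518 in CD_WD (log2 fold change 6.83 ± 0.51, limma adjusted p = 7e-05). Ccl4 read 102, 887 and 79.9 in CD_CD and 15881, 26525 and 68482 in CD_WD (7.30 ± 1.19, 0.00241). Cxcl2, a neutrophil attractant, rose by 4.28 ± 0.69 (0.00233), Ccl3 by 5.08 ± 0.91 (0.0039) and Ccl7, which attracts monocytes, by 4.68 ± 0.91 (0.00549). Ccl2, the main monocyte attractant of the vessel wall, read 583, 646 and 263 in CD_CD and 1088, 11290 and 19416 in CD_WD (3.74 ± 0.98, 0.0237). Its call was lost without any of 5 libraries, CD_CD replicates 1, 2 and 3 (limma adjusted p = 0.0657, 0.0567 and 0.077) and CD_WD replicates 2 and 3 (0.073 and 0.0655). The receptor Cxcr4 was higher as well (4.86 ± 0.81, 0.00268).

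**Figure D2:**
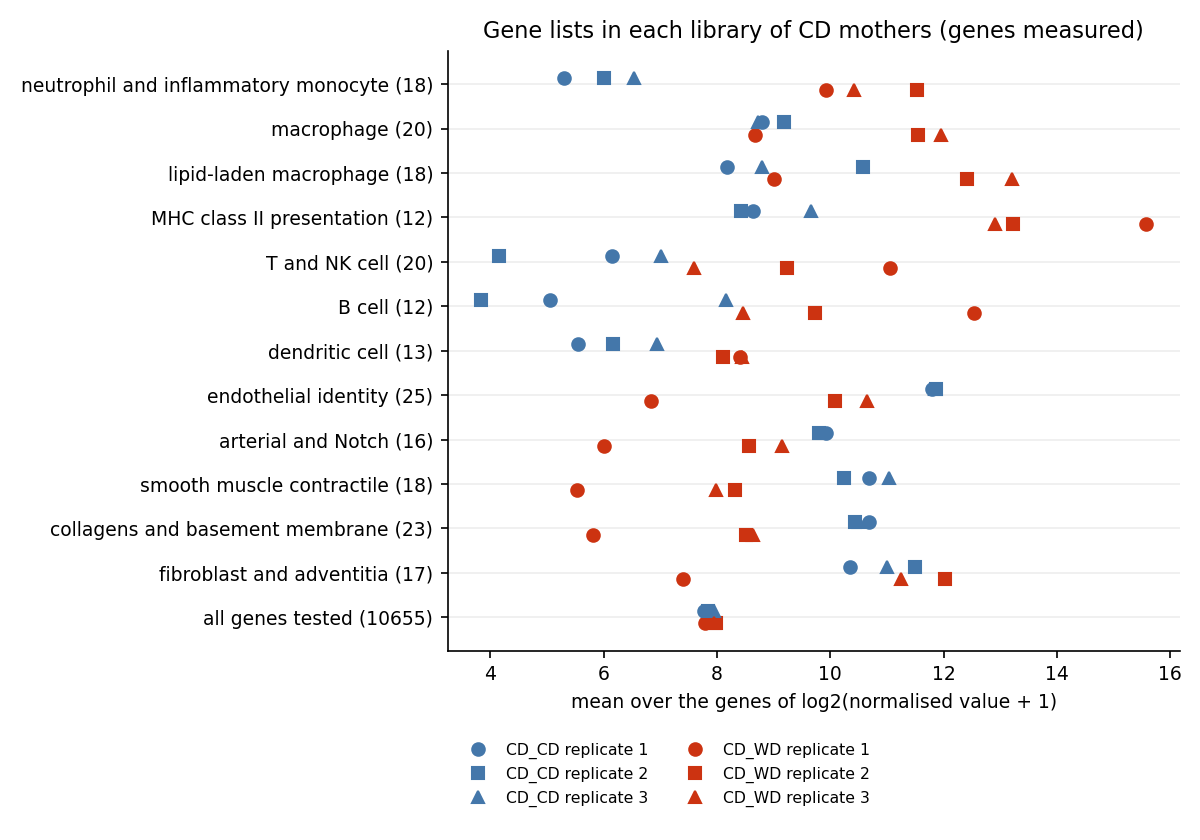
Mean of log2(normalised value + 1) over the measured genes of 12 lists and over all genes (horizontal axis), in each library of CD mothers. Blue marks are CD_CD and red marks CD_WD libraries, with circles, squares and triangles for replicates 1, 2 and 3; the neutrophil, MHC class II, T cell and B cell lists lie higher in every CD_WD library than in any CD_CD library, the endothelial, smooth muscle and collagen lists lower, and CD_WD replicate 1 lies apart on most lists.

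Macrophage genes were called in greater number once CD_WD replicate 1 was left out. Of 20 measured, 5 were higher and none lower with all libraries, and 13 were higher without CD_WD replicate 1, with medians of 1.83 and 3.11 (1.19 without CD_WD replicate 3); the number was 3 without any of CD_CD replicates 1 and 3 and CD_WD replicates 2 and 3. Scaled to total reads, 3 were higher and 1 lower, with a median of 0.39. The list took 0.363 to 0.482% of the reads in CD_CD, 0.271% in CD_WD replicate 1, and 3.12% and 3.96% in replicates 2 and 3. Fcer1g, the shared signalling chain of Fc receptors, read 749, 982 and 812 in CD_CD and 14302, 46453 and 47150 in CD_WD (log2 fold change 5.22 ± 0.69, limma adjusted p = 0.00122), and Tyrobp, its partner for other receptors, rose by 5.26 ± 0.75 (0.00149). Lyz2, lysozyme of myeloid cells, read 8873, 17575 and 13514 in CD_CD and 34320, 288799 and 376491 in CD_WD (3.60 ± 1.04, 0.0355). The call of Lyz2 was lost without CD_CD replicates 1, 2 or 3 (limma adjusted p = 0.131, 0.0837 and 0.0817) and without CD_WD replicates 2 or 3 (0.102 and 0.0908). Cd68, Csf1r and C1qa, which define macrophages, passed only without CD_WD replicate 1 among these fits (limma adjusted p = 0.00484, 0.0408 and 0.0334, against 0.0804, 0.587 and 0.617 with it): C1qa stood at 461 in that library, below the 1612 to 1918 of CD_CD, and at 6737 and 10806 in the other 2. Adgre1, the gene of F4/80, did not pass (1.47 ± 0.50, limma adjusted p = 0.0672).

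Markers of lipid-laden macrophages followed the same split. With all libraries 2 of 18 were higher and 1, the fatty acid receptor Cd36, lower, with a median of 2.67 (1.59 without CD_WD replicate 3); the 2 are 11.1% of the list, near the 9.46% of all genes, and by total reads none was higher and 2 were lower, with a median of 1.24. In limma, 1 was higher without any 1 of CD_CD replicates 1 and 3 and CD_WD replicates 2 and 3. Without CD_WD replicate 1, 8 were higher and none lower, with a median of 4.14. Fabp5, a fatty acid binding protein, read 626, 1480 and 1180 in CD_CD and 3752, 21271 and 46505 in CD_WD (3.91 ± 0.81, limma adjusted p = 0.00735). Lgals3, galectin 3, read 604, 3767 and 694 in CD_CD and 6503, 71948 and 107631 in CD_WD (4.99 ± 1.26, 0.0201), and its call was lost without CD_CD replicates 1 or 3 (0.0877 and 0.0642) and CD_WD replicates 2 or 3 (0.0603 and 0.0531). The call of Cd36 (limma adjusted p = 0.0395) was lost without CD_CD replicates 1 and 3 (0.17 and 0.0872) and CD_WD replicate 1 (0.0852). Trem2, Gpnmb and Spp1, the best known genes of foam cells, did not pass (limma adjusted p = 0.133, 0.206 and 0.212). Their values in CD_CD were widely spread: Gpnmb stood at 133, 4931 and 245 there and at 388, 13218 and 42050 in CD_WD, and it passed without CD_WD replicate 1 (0.0343). Of 29 lysosomal genes, 3 were higher with all libraries and 14 without that replicate, and none was lower in either fit. The 3 are 10.3% of that list, near the share of all genes. The lysosomal median of 0.58 went to 1.41 when CD_WD replicate 1 was left out, went to 0.23 when replicate 3 was, and turned to -0.87 by total reads, where none was higher and 6 were lower. Cathepsin Z (Ctsz, 2.43 ± 0.48, limma adjusted p = 0.00599) and alpha-galactosidase (Gla, 3.24 ± 0.66, 0.00672) passed in every fit without 1 library, but not by total reads.

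Genes of antigen presentation on MHC class II were higher in 11 of 12 cases, with a median of 4.95 and 8 to 12 called in the fits without 1 library. The class II molecules display peptides to CD4 T cells on B cells, dendritic cells and macrophages, and their genes are switched on together through X and Y boxes before their start and the coactivator Ciita. The upstream sequence of 4 members, from RefSeq (GRCm38.p6), is shown to let the shared boxes be seen. Each line runs 5′ to 3′ up to the base before the start, with the letters ACNGATG (X) and ATTGG (Y), or their reverse complements, in capitals.
H2-Eb1, chr17:34305767-34305866, plus strand: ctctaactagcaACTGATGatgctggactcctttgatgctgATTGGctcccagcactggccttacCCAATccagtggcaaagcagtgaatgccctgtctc
H2-DMb1, chr17:34153091-34153190, plus strand: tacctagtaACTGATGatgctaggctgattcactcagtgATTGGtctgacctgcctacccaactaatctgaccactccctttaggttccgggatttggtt
H2-DMb2, chr17:34145119-34145248, plus strand: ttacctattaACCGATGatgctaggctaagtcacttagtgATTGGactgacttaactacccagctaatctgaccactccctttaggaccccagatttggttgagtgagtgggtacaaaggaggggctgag
H2-Aa, chr17:34287824-34287923, minus strand: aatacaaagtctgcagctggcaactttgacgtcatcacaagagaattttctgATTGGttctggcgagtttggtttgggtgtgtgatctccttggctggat
In the first 3, the Y letters follow the X letters after 22, 23 and 23 bases; in H2-Aa the shown stretch holds the Y letters alone.

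The letters were chosen with these promoters in view. Within the 250 bases before a start, searched on both strands, X letters followed by Y letters after 15 to 30 bases were present in 40 of the 27025 genes of the promoter table (0.148%), in 3 of the 9 class II list members found in it in 6 of the 767 higher genes found in it (0.782%), class II members included, in 2 of the 453 lower genes (0.442%) and in 0.159% of the tested genes. The Y letters were present in 37.5% of all genes of that table, and the X letters in 9.45%. A match of letters is a description and does not show a bound site.

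The class II genes were among the most abundant RNAs of the CD_WD libraries. Cd74, the invariant chain that guides class II molecules, read 8744, 7015 and 14760 in CD_CD and 2280270, 470924 and 407477 in CD_WD, a log2 fold change of 6.29 ± 0.91 (limma adjusted p = 0.00155). H2-Ab1 read 2673, 3017 and 6457 in CD_CD and 847670, 129277 and 142430 in CD_WD (6.06 ± 0.88, 0.00155), and of the genes shown above, H2-Aa rose by 5.95 ± 0.82 (0.00129), H2-Eb1 by 5.40 ± 0.79 (0.00161) and H2-DMb1 by 3.83 ± 0.60 (0.00224). All 3 CD_WD libraries lay above all CD_CD libraries for each of these, with CD_WD replicate 1 highest. The list took 0.233 to 0.446% of the reads in CD_CD and 13.5%, 5.05% and 4.74% in CD_WD replicates 1 to 3. H2-DMb2 (limma adjusted p = 0.0399) and Ciita (0.046) passed with all libraries and were lost in 5 of the 6 fits without 1 library, with adjusted p of 0.113, 0.144, 0.0539, 0.126 and 0.0526 for H2-DMb2 and 0.169, 0.108, 0.0618, 0.137 and 0.0539 for Ciita, without CD_CD replicates 1, 2 and 3 and CD_WD replicates 1 and 2 in that order. H2-Ob did not pass (0.0651). H2-DMb1 and H2-DMb2 are close paralogs, between which the authors' counting could split reads.

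MHC class I presentation rose less. Of 16 measured genes, 10 were higher and none lower, with a median of 1.82 (6 higher without CD_CD replicate 1). Scaled to total reads, 5 were higher and 3 lower, with a median of 0.37. B2m, the light chain of class I molecules, read 18046, 25869 and 21268 in CD_CD and 367216, 99745 and 124142 in CD_WD (2.95 ± 0.61, limma adjusted p = 0.00735). H2-D1 rose by 2.63 ± 0.48 (0.00414), and the immunoproteasome subunit Psmb8, which cuts peptides for class I, by 2.69 ± 0.55 (0.00678). Among 29 interferon-induced genes, by contrast, 5 were higher and none lower, with a median of 0.56 (0.94 without CD_WD replicate 1, 0.18 without CD_WD replicate 3) that turned to -0.87 by total reads, with none higher and 5 lower. Usp18, which restrains interferon signalling, was one of the 5 (2.43 ± 0.49, limma adjusted p = 0.00635). The number higher was 1 without CD_CD replicate 1 or 2, 2 without CD_CD replicate 3 or CD_WD replicate 3, and 3 without CD_WD replicate 2.

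Lymphocyte genes were highest in CD_WD replicate 1. Of 12 B cell genes, 6 were higher and none lower with all libraries and 2 without that replicate, with medians of 4.76 and 3.58; 1 was higher without CD_CD replicate 1 or 2, 9 without CD_CD replicate 3, and 4 without CD_WD replicate 2. Total reads gave 3 higher and 1 lower B cell genes, with a median of 3.41. Cd79a, a chain of the B cell receptor complex, read 299, 46.6 and 1694 in CD_CD and 259783, 9342 and 2504 in CD_WD (5.98 ± 1.57, limma adjusted p = 0.0236). Its call was lost without CD_CD replicates 1 or 2 (0.0747 and 0.105) and without CD_WD replicate 1 (0.0554). The B cell list took 0.00905 to 0.0803% of the reads in CD_CD and 1.29%, 0.148% and 0.044% in CD_WD replicates 1 to 3, so that replicate 3 lay within the CD_CD range. Cd79b, the partner chain, had no read in CD_CD replicate 2, and its call (limma adjusted p = 0.0399) was lost without CD_CD replicates 1 and 2 (0.0715 and 0.111) and CD_WD replicates 1 and 2 (0.123 and 0.0748). Of 20 T and NK cell genes, 7 were higher and none lower, with a median of 3.35 (4 higher and 2.03 without CD_WD replicate 1; a median of 1.75 without CD_CD replicate 2; 2 higher without CD_CD replicate 1, 3 without CD_CD replicate 2, and 4 without CD_WD replicate 2). The list took 0.0112 to 0.0665% of the reads in CD_CD and 0.36%, 0.141% and 0.0535% in CD_WD replicates 1 to 3, so that replicate 3 again lay within the CD_CD range. Nkg7, a granule protein of cytotoxic lymphocytes, read 75.3, 31.1 and 51.5 in CD_CD and 13901, 2528 and 726 in CD_WD (5.87 ± 1.12, 0.0051). Cd52, a surface protein of lymphocytes and monocytes, read 386, 199 and 706 in CD_CD and 356938, 29264 and 18456 in CD_WD (7.25 ± 0.98, 0.00127). Of 13 dendritic cell genes 3 were higher and none lower (1 without CD_CD replicate 2, 2 without CD_CD replicate 1 or CD_WD replicates 2 or 3), among them Irf8, a transcription factor of dendritic cell and monocyte development (4.71 ± 0.73, 0.00208). Total reads gave 2 higher and 1 lower in that list, with a median of 1.11.

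**Figure D3:**
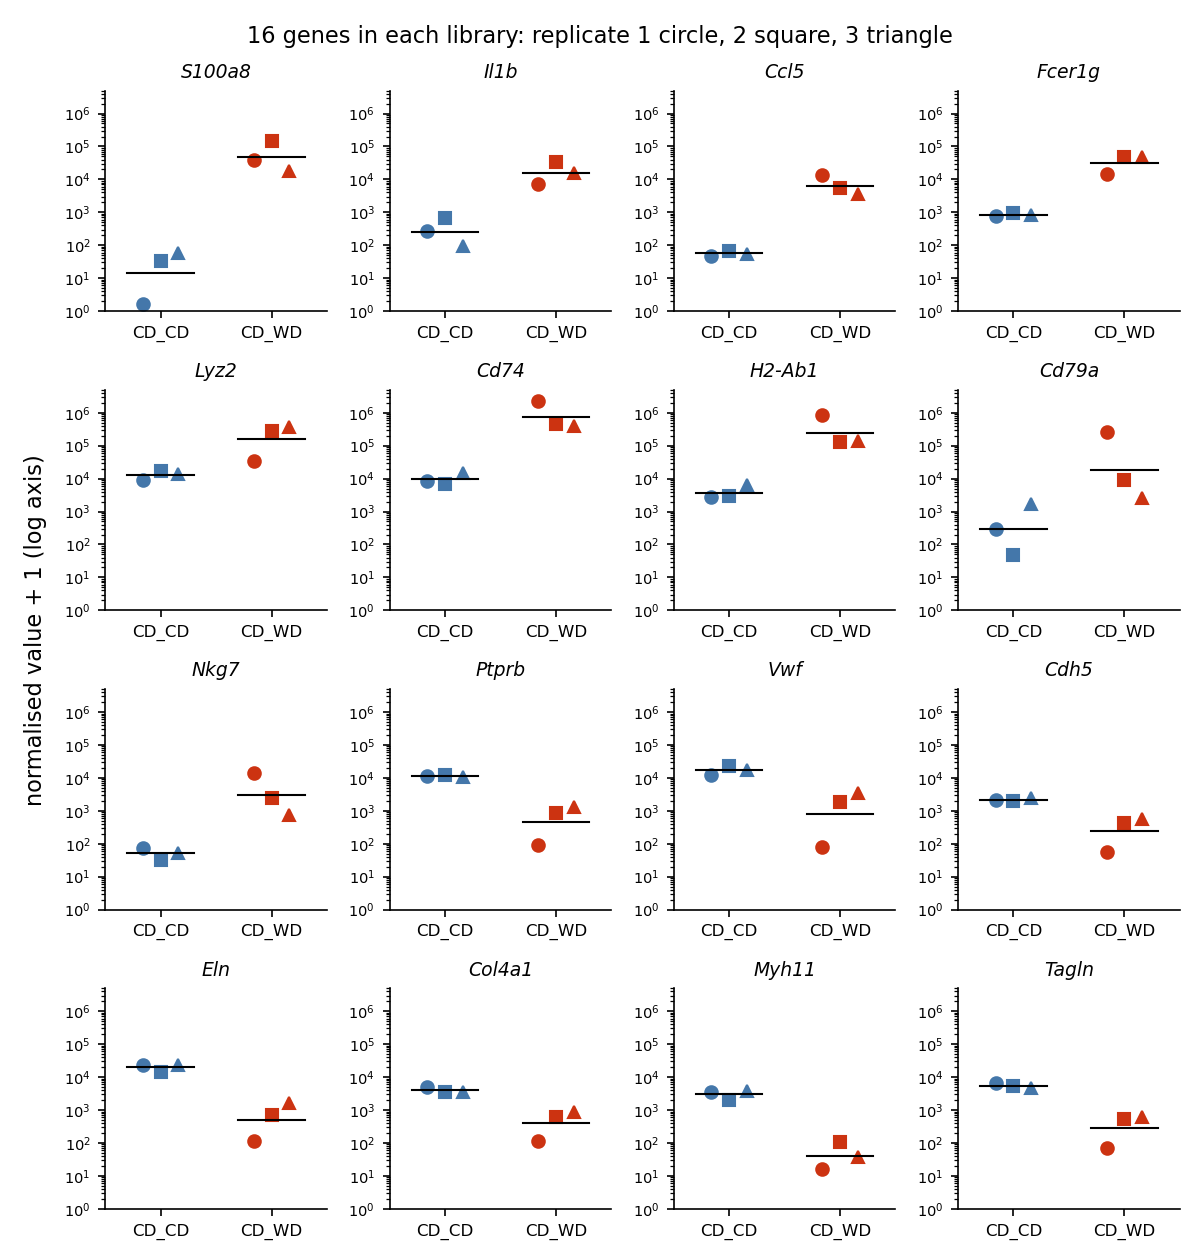
Normalised value + 1 (vertical axis, log scale) of 16 genes in the 3 CD_CD libraries (blue) and the 3 CD_WD libraries (red); circles, squares and triangles are replicates 1, 2 and 3 and each bar is the mean taken on the log scale (n = 3). All 16 genes were chosen among those that passed, of which 1590 of 1599 have groups that do not overlap, so the lack of overlap here follows from the choice. Over all genes the groups did not overlap for 21.9% upward and 21.6% downward. CD_WD replicate 1 is the highest red mark for Cd74, H2-Ab1, Cd79a and Nkg7 and the lowest for the genes of the vessel wall.

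Endothelial identity genes were lower in CD_WD, in part past the test. All 25 had a negative log2 fold change, with a median of -2.70, and 10 were called lower and none higher. The number called was 3, 2 and 5 without CD_CD replicates 1, 2 and 3, and it was 10, 12 and 20 without CD_WD replicates 1, 2 and 3; by total reads it was 25. The list took 1.85 to 2.22% of the reads in CD_CD and 0.0384%, 0.258% and 0.458% in CD_WD replicates 1 to 3. Without CD_WD replicate 1 the median was -1.30. Ptprb (chr10:116275523-116389535, GRCm38, plus strand), the endothelial phosphatase that acts on Tek and VE-cadherin, read 11333, 11976 and 10415 in CD_CD and 88.7, 845 and 1313 in CD_WD (log2 fold change -4.60 ± 0.75, limma adjusted p = 0.00241). Cd93, a surface receptor of endothelium, read 4758, 3802 and 3422 in CD_CD and 259, 952 and 1388 in CD_WD (-2.50 ± 0.54, 0.00947). Both passed in every fit without 1 library.

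Other defining endothelial genes were lower with less certainty. Vwf, von Willebrand factor, read 12290, 23386 and 17725 in CD_CD and 78.6, 1843 and 3573 in CD_WD (-4.42 ± 1.02, limma adjusted p = 0.0133; 0.0546 without CD_CD replicate 2). Cdh5, VE-cadherin of the junctions between endothelial cells, read 2190, 1924 and 2493 in CD_CD and 55.8, 433 and 554 in CD_WD (-3.19 ± 0.78, 0.017; 0.0611, 0.0539 and 0.0515 without CD_CD replicates 1, 2 and 3). Pecam1, another junction protein, stood at 21538, 29878 and 17284 in CD_CD and 923, 4473 and 9817 in CD_WD (-2.70 ± 0.66, 0.017; 0.0587 and 0.0707 without CD_CD replicates 1 and 2). Emcn and Cldn5 did not pass (limma adjusted p = 0.247 and 0.0756): Emcn stood at 1524 to 2463 in CD_CD, at 55.8 in CD_WD replicate 1 and at 1661 and 1631 in replicates 2 and 3. No gene of the endothelial list was at 0 in a CD_WD library. The share of reads on the smooth muscle list was lower in CD_WD as well, while those on the neutrophil and MHC class II lists were higher. The part of such shifts in the endothelial result was not tested.

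Signalling genes of the endothelium were lower as well. In the arterial and Notch list, 6 of 16 were lower and 1 higher, with a median of -2.73 (-1.33 without CD_WD replicate 1; 4 lower without any 1 of CD_CD replicates 1 to 3 and 10 without CD_WD replicate 3): the receptor Notch4 read 960, 999 and 1031 in CD_CD and 40.6, 211 and 219 in CD_WD (limma adjusted p = 0.00478), the ligand Jag1 fell by 2.86 on the log2 scale (SE 0.55, 0.0052) and Efnb2, the arterial ephrin, by 3.95 (SE 0.82, 0.00748). The higher member was the chemokine receptor Cxcr4. In the list of VEGF and angiopoietin signalling, 4 of 14 were lower and none higher, with a median of -1.96 (-1.09 without CD_WD replicate 1; 2 lower without any 1 of CD_CD replicates 1 to 3). Nrp1, a co-receptor for VEGF, read 4420, 3181 and 2532 in CD_CD and 279, 755 and 937 in CD_WD (-2.50 ± 0.41, 0.00262), and Flt4, the receptor of VEGF-C, fell by 4.53 (SE 0.88, 0.00565). The VEGF receptors Kdr and Flt1 did not pass (limma adjusted p = 0.0773 and 0.0711). Without CD_WD replicate 2 they passed at 0.0483 and 0.0305, and Flt1 at 0.0477 without CD_WD replicate 3. Of 24 genes of TGF-beta and BMP signalling, 9 were lower and 1 higher (3, 3 and 4 lower without CD_CD replicates 1, 2 and 3). The BMP receptor Bmpr2 fell by 4.38 (SE 0.77, 0.00352), the ligand Bmp6 by 3.76 (SE 0.78, 0.00748) and Ltbp3, which stores latent TGF-beta in the matrix, by 3.27 (SE 0.52, 0.00224). Id2, a target of BMP signals, was the higher member (1.52 ± 0.29, 0.00508), at 0.07 by total reads.

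Of 14 genes tied to laminar flow, 7 were lower and 2 higher, with a median of -2.87 (-1.55 without CD_WD replicate 1). Without CD_CD replicates 1 and 2, 4 and 3 were lower. None was higher without CD_CD replicate 1 or by total reads (10 lower), and 1 was higher without CD_CD replicate 3 or CD_WD replicates 2 or 3. A fit of the 6 libraries alone gave 3 lower and none higher. Heg1, a junction-linked receptor, read 1420, 2302 and 2416 in CD_CD and 203, 228 and 299 in CD_WD, with all 3 CD_WD libraries close together (-3.05 ± 0.34, limma adjusted p = 0.00054). The water channel Aqp1 fell by 3.48 (SE 0.64, 0.00414) and Timp3, an inhibitor of matrix proteases, by 3.08 (SE 0.66, 0.0086). Klf2 and Klf4, paired transcription factors of laminar flow, moved apart: Klf4 stood at 1779, 1799 and 1695 in CD_CD and 119, 621 and 617 in CD_WD (-2.29 ± 0.60, 0.0232), and Klf2 at 3839, 4345 and 3299 in CD_CD and 19851, 7995 and 8677 in CD_WD (1.55 ± 0.38, 0.0168). By total reads Klf2 was at 0.10 and did not pass. The calls were lost without CD_CD replicates 1 and 3 for Klf2 (0.0615 and 0.0566) and without CD_CD replicates 1, 2 and 3 for Klf4 (0.0773, 0.0751 and 0.0562). Nos3, endothelial nitric oxide synthase, read 2689, 3933 and 2871 in CD_CD and 78.6, 494 and 1363 in CD_WD (-3.05 ± 0.75, 0.0177; 0.0555 and 0.0706 without CD_CD replicates 1 and 2).

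Of 12 adhesion molecules and related genes by which endothelium captures leukocytes, 1 was higher and 2 (16.7%) lower, with a median of -1.55 (-0.47 without CD_WD replicate 1). By total reads none was higher and 7 were lower, with a median of -2.99. The chemokine Ccl2 was higher, and Glg1, a ligand of E-selectin (-1.46 ± 0.28, limma adjusted p = 0.00481), and the junction protein Jam2 (-3.30 ± 0.75, 0.0125; 0.0565 without CD_CD replicate 2) were lower. Vcam1 read 5706, 10556 and 4915 in CD_CD and 489, 7200 and 17714 in CD_WD, so that the groups overlapped (-0.75 ± 0.95, 0.659). Icam1 (-0.32 ± 0.71, 0.822), the selectin Sele (0.48 ± 1.22, 0.844) and Selp (-1.51 ± 0.94, 0.313) did not pass either, and each was lowest in CD_WD replicate 1 among the 6 libraries.

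Smooth muscle genes were measured in these libraries too and were lower in CD_WD. Of 18 measured, 12 were lower and none higher, with a median of -3.32 (-2.17 without CD_WD replicate 1). The number lower was 7, 7 and 6 without CD_CD replicates 1, 2 and 3, and 9, 11 and 15 without CD_WD replicates 1, 2 and 3. The list took 0.835 to 1.44% of the reads in CD_CD and 0.0075%, 0.113% and 0.113% in CD_WD replicates 1 to 3. Myh11 (chr16:14194535-14291372, GRCm38, minus strand), the smooth muscle myosin heavy chain, had the largest fall among the called genes: 3524, 2022 and 3664 in CD_CD against 15.2, 109 and 36.1 in CD_WD (-6.20 ± 0.78, limma adjusted p = 0.000999). Pln, which controls the calcium pump, read 560, 276 and 343 in CD_CD and 2.54, 20.9 and 4.3 in CD_WD (-5.66 ± 0.79, 0.00131), and Tagln, an actin-binding protein, 6648, 5321 and 4664 against 71, 550 and 594 (-4.26 ± 0.73, 0.00314). Acta2, smooth muscle actin, fell from 26660, 25692 and 41444 to 581, 5246 and 8715 (-3.35 ± 0.85, 0.02), with 0.0611, 0.0561 and 0.0612 without CD_CD replicates 1, 2 and 3.

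The matrix of the vessel wall fell with these genes. Of 23 collagen and basement membrane genes, 16 were lower and none higher, with a median of -2.97 (-1.92 without CD_WD replicate 1; 9 and 10 lower without CD_CD replicates 1 and 2). Eln (chr5:134702593-134747323, GRCm38, minus strand), the gene of elastin, read 23480, 14206 and 23279 in CD_CD and 112, 714 and 1612 in CD_WD (-5.29 ± 0.82, limma adjusted p = 0.00209). Col4a1 and Col4a2, the paired chains of basement membrane collagen, fell by 3.33 (SE 0.60, 0.00396) and 3.23 (SE 0.56, 0.00317), and the laminin chain Lamb2 by 2.61 (SE 0.54, 0.00748). Fn1, fibronectin, read 6135, 7483 and 5740 in CD_CD and 221, 1090 and 1511 in CD_WD (-3.17 ± 0.56, 0.00368). The fibroblast and adventitia list did not follow: 1 of 17 was lower and none higher, with a median of -0.43, which was 1.08 without CD_WD replicate 1, -1.43 and -1.01 without CD_WD replicates 2 and 3, and -0.03 without CD_CD replicate 2. Its lower member was Col3a1 (-2.54 ± 0.77, 0.0427; 0.11, 0.118, 0.0945 and 0.0787 without CD_CD replicates 1, 2 and 3 and CD_WD replicate 1). Col1a1 and Col1a2 did not pass (limma adjusted p = 0.124 and 0.0711), and passed without CD_WD replicate 2 (0.0356 and 0.0216). In a list of endothelial-to-mesenchymal transition, 4 of 13 were lower and 1 higher, with a median of -1.53 (-0.71 without CD_WD replicate 1; 2 lower without CD_CD replicate 1 or 3); the higher member was S100a4 (3.27 ± 0.43, 0.00121), a calcium-binding protein also abundant in leukocytes, and among the lower ones was Postn, periostin (-3.31 ± 0.70, 0.00808).

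Of 21 genes of cholesterol synthesis under SREBP2, limma and edgeR called none, limma gave 1 an unadjusted p under 0.05 (Insig1), and DESeq2 called that gene lower. The median was 0.22, and -1.22 by total reads, where 5 were lower; it turned to -0.06 without CD_CD replicate 2 and -0.12 without CD_WD replicate 3, and was near 0 without CD_CD replicate 1. Of 17 LXR targets and genes of cholesterol efflux, 2 (11.8%) were higher and 2 lower, with a median of 0.53 that turned to -0.91 by total reads (none higher, 6 lower). Leaving out CD_WD replicate 1 moved it to 1.09, and leaving out replicate 3 moved it to -0.32. None was higher without any 1 of CD_CD replicates 1 and 2 and CD_WD replicates 2 and 3, and 1 was higher without CD_CD replicate 3; 1 was lower without CD_CD replicate 2. Abca1, the efflux pump, stood at -0.13 ± 0.40 (0.872), and the desaturase Scd2 was lower (-1.78 ± 0.36, 0.00688). Of 25 genes of fatty acid uptake and lipid droplets, 2 were higher and 2 lower, with a median of -0.34 (near 0 without CD_WD replicate 1, -0.15 without CD_CD replicate 1, -0.57 without CD_WD replicate 2). By total reads 1 was higher and 11 lower, with a median of -1.78. The lower calls rest on single libraries (none lower without CD_CD replicates 1 or 3 or CD_WD replicate 1, 1 without CD_CD replicate 2 or CD_WD replicate 3). Hilpda, a lipid droplet protein that inhibits lipolysis, read 170, 288 and 208 in CD_CD and 1955, 2749 and 3795 in CD_WD, with no overlap between the groups (3.65 ± 0.41, limma adjusted p = 0.00054). Plin2, which coats lipid droplets, did not pass (2.11 ± 0.85, 0.117) and passed without CD_WD replicate 1 (0.00156), where it stood at 1143 against 11416 and 19108 in the other CD_WD libraries.

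Iron and redox genes were led by the ferritin chains, which store iron. Ftl1 read 30781, 40164 and 33819 in CD_CD and 561327, 693468 and 897072 in CD_WD (4.34 ± 0.87, limma adjusted p = 0.00627), and Fth1 rose by 3.89 ± 0.76 (0.00567). Both have processed copies in the genome, between which reads could be split. Of 17 genes of iron and heme handling, 5 were higher and 1 lower, with a median of 0.66 (1.25 without CD_WD replicate 1 and 0.997 without CD_CD replicate 1) that turned to -0.76 by total reads, with 3 higher and 2 lower (2 higher without CD_CD replicate 1 or 2, 9 without CD_WD replicate 1). Of 19 NRF2 and antioxidant genes, 7 were higher and none lower, with a median of 0.95 (1.49 without CD_WD replicate 1) that turned to -0.49 by total reads, with 1 higher and 5 lower (4 higher without CD_CD replicate 2). Gpx1, a glutathione peroxidase, rose by 3.09 ± 0.42 (0.00129) and Mt1, a metallothionein, by 3.06 ± 0.61 (0.00619). Of 21 genes of glycolysis and hypoxia, 6 were higher and none lower, with a median of 0.37 (0.73 without CD_WD replicate 1) that turned to -1.08 by total reads, with 1 higher and 8 lower (2 higher without CD_CD replicate 1 or 2 or CD_WD replicate 2, 3 without CD_CD replicate 3). Hk2, a hexokinase, read 97.8, 258 and 146 in CD_CD and 796, 1716 and 1538 in CD_WD (3.04 ± 0.44, 0.00154).

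Genes of the cytosolic ribosome and of the respiratory chain formed the longest lists. Of 81 ribosomal protein genes, 63 were higher and none lower, with a median of 2.21. The number was 28 without CD_CD replicate 1 or 2, 23 in a fit of the 6 libraries alone, and 22 by total reads, with a median of 0.76. The list took 1.96 to 2.88% of the reads in CD_CD and 12.7%, 3.74% and 3.14% in CD_WD replicates 1 to 3. Fau, which encodes a ribosomal protein fused to a ubiquitin-like one, read 1010, 1166 and 1546 in CD_CD and 50115, 12835 and 9269 in CD_WD (3.89 ± 0.53, limma adjusted p = 0.00127). Of 89 respiratory chain genes, 54 were higher and none lower, with a median of 1.62 (23 higher, 5 lower and 0.17 by total reads). Uqcr11, a subunit of complex III, read 2454, 1517 and 2417 in CD_CD and 22288, 13877 and 15162 in CD_WD (3.01 ± 0.34, 0.00054). Ribosomal proteins have many processed pseudogenes, so their counts are uncertain where reads could be split.

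Log2 fold changes went down with transcript length. A length, that of the longest GENCODE transcript, was found for 10292 genes (96.6%). Its median was 1809 bases in the higher, 4995 bases in the lower and 3430 bases in the remaining genes. Genes were sorted by length into 5 bins of nearly equal number. In the shortest bin (70 to 1925 bases), 25.2% were higher and 0.971% lower, with a median log2 fold change of 0.785. In the longest bin (5217 to 123179 bases), 1.99% were higher and 13.2% lower, with a median of -0.712. By total reads the medians of both bins were negative, at -0.646 and -2.14. Without the ribosomal and respiratory lists, 21.9% of the 1926 genes of the shortest bin were higher. Ribosomal and respiratory genes had median lengths of 1059 and 1170 bases, the collagen list 6091 bases. With the trend over length removed, a setting chosen after seeing the data, 6.97% of genes were higher and 2.27% lower. The ribosomal genes called higher then numbered 17 with a median of 1.38, the respiratory genes 24 with 0.67, and the collagen genes called lower 8 with -1.99. MHC class II then had 10 higher, the neutrophil list 10 higher, the smooth muscle list 11 lower and the endothelial list 7 lower. Among the genes named above, the call ended for S100a4 (log2 fold change 1.01, limma adjusted p = 0.332), Glg1 (-0.69, 0.13), B2m (1.68, 0.0668), Cd93 (-1.75, 0.0666) and Scd2 (-1.13, 0.0648). It also ended for Vwf (0.0622), Nos3 (0.0537), Tek (0.0756), Klf2 (0.0691), Col3a1 (0.174), Ccl7 (0.0501), Ccl2 (0.0909), Lyz2 (0.0817), Il1r1 (0.141), Cd36 (0.0979), H2-DMb2 (0.0739), Cd79a (0.0502) and Cd79b (0.0715). The values of Retnlg (3.39), Tyrobp (3.33), Fau (2.37) and Uqcr11 (1.11) were smaller by over 1.5 times and still passed. The deposited values are per gene and not per length, and what sets the trend was not tested.

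**Figure D4:**
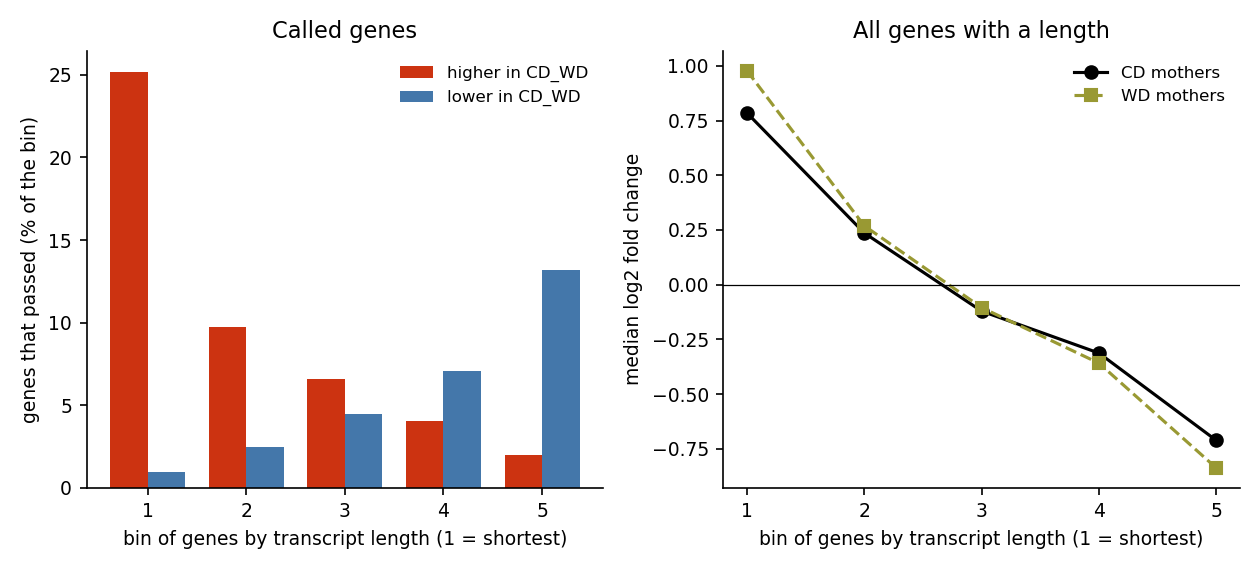
Genes sorted into 5 bins by transcript length (horizontal axis, 1 the shortest). Bars at left give the percent of each bin called higher (red) or lower (blue) in CD_WD, from 25.2% higher in the shortest to 13.2% lower in the longest; lines at right give the median log2 fold change of offspring diet with CD mothers (black circles) and with WD mothers (olive squares), which fall together.

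The same offspring contrast with WD mothers, WD_WD (WD mothers, WD offspring) against WD_CD (WD mothers, CD offspring) with 3 libraries each, shares no library with the comparison above. Both contrasts come from the same limma fit and share its estimate of each gene's spread, so their calls are not independent. It called 14.2% of genes higher and 10.2% lower. Of the 1008 genes higher with CD mothers, 825 were also higher with WD mothers, which is 81.9% of the first list and 54.4% of the second. Of the 591 lower genes, 411 were lower in both, 69.5% and 37.8% of the lists, and no gene was called in opposite directions. Pearson's r of the log2 fold changes was 0.763 across genes, which are not independent replicates.

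The test of the difference between the contrasts called no gene in limma (342 of the 10655 genes had an unadjusted p under 0.05) or edgeR (306), and DESeq2 called 10. Both unadjusted counts are a smaller share of the genes than the threshold of 0.05 itself. No difference below is therefore past the adjusted threshold in limma, where each had an adjusted p of 0.9973. Abi3bp, a matrix protein of the adventitia, stood at -0.32 with CD mothers and -6.97 with WD mothers, and Car2, a carbonic anhydrase, at 4.57 and 9.74; DESeq2 called both. Among smooth muscle genes, Tpm2, a tropomyosin, stood at -3.59 and -0.09 and Acta2 at -3.35 and -0.80, and Myh11 had an unadjusted p of 0.0126 in limma for the difference. The small heat shock protein of muscle Hspb7 stood at -5.90 and -0.77. The calls of Tpm2 and Hspb7 with CD mothers (limma adjusted p = 0.0138 and 0.0124) were lost without CD_CD replicates 1 and 3 (0.0506 and 0.0516) for Tpm2 and without CD_CD replicate 2 (0.0501) for Hspb7. The smooth muscle list as a whole had 12 of 18 lower with CD mothers and 4 with WD mothers, whereas the endothelial list had 10 and 12 of 25 and the collagen list 16 and 16 of 23. The smooth muscle median was -3.32 with CD mothers (-2.17 without CD_WD replicate 1) and -1.52 with WD mothers. These counts and medians do not test a difference between mothers.

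**Figure D5:**
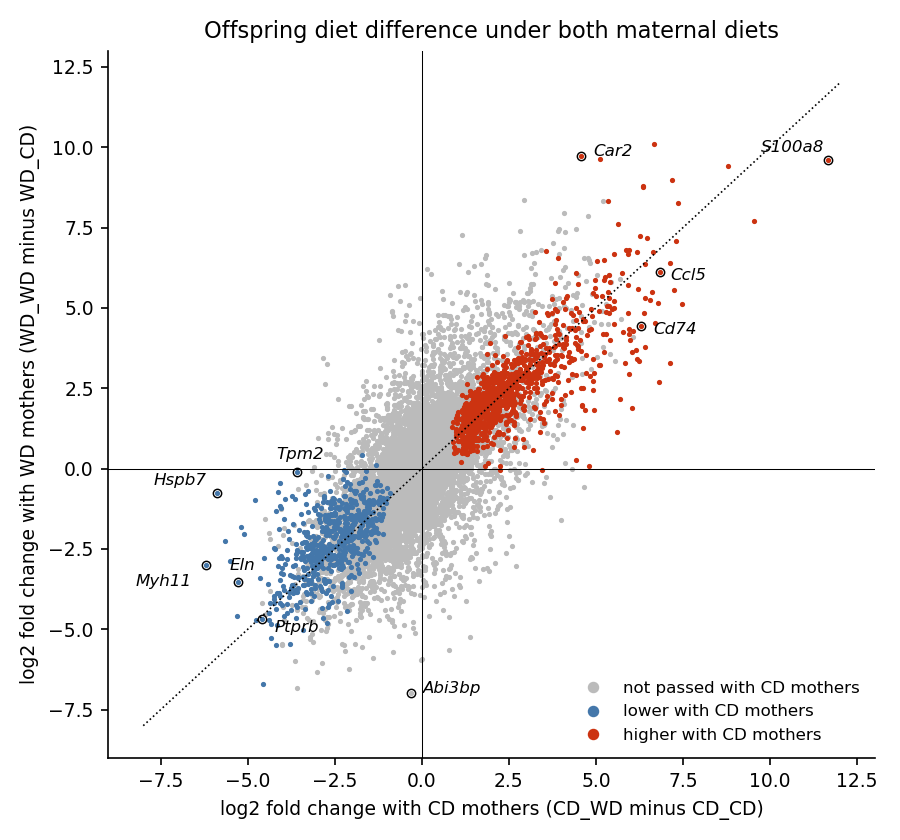
Log2 fold change of offspring diet with WD mothers (vertical axis) against that with CD mothers (horizontal axis) for each of the 10655 genes, coloured by the call with CD mothers (red higher, blue lower, grey not passed); the dotted line marks equal values. Myh11, Tpm2 and Hspb7 lie farther from 0 with CD mothers and Car2 and Abi3bp with WD mothers, differences that did not pass in limma after adjustment.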

How the data were processed

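RNA of 12 libraries (total RNA by Trizol, SMART-seq, per the labels' protocols) was deposited as 1 table of 10655 genes. Per the submitters' processing notes, HISAT2 2.2.1, featureCounts 2.0.1 and DESeq2 were used with GRCm38; their order and settings are not stated there. The deposited expression signal is each gene's reads divided by 1 size factor per library: all 127860 values were whole reads within 0.01 after multiplying back. The authors' deposited log2 fold changes and p-values concern maternal diet and were not used.

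Values were transformed to log2(value + 1) and fitted with limma 3.58.1 (trend) in R 4.3.3, with a mean for each of the 4 groups and 8 residual degrees of freedom. Benjamini-Hochberg adjustment ran over all genes, with a threshold of 0.05; every adjusted p and SE is from that fit unless another tool is named. Fold changes of low genes are understated on this scale. The code was tested on simulated data. edgeR 4.0.16 and DESeq2 1.42.0 were run on the recovered reads as alternatives, beside other pseudocounts, filters, scalings and weights, a replicate block and each library left out; removing the length trend was chosen after seeing the data. The 35 lists share some members. Members and lists were chosen with earlier results of these data known. Genes were named where they had the 12 largest changes, the 8 largest in level (mean of at least 50, groups not overlapping), the up to 6 smallest p of a list, or the 5 smallest p of the difference between mothers; members that did not pass are named with values. Counting error alone is not the limit here: the spread between 3 libraries is.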

Additional observations from a re-analysis of the deposited data

How the results depend on the processing

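The counts of higher and lower genes stayed within 1.5 times of 1008 and 591 under other pseudocounts, a mean of at least 50, a fit of the 6 libraries alone, TMM scaling and edgeR. List counts moved more in the fit of the 6 libraries: higher genes numbered 23 of 81 in the ribosomal, 5 of 16 in the MHC class I, 1 of 12 in the B cell and 0 of 23 in the immediate-early list, and lower genes 5 of 25 in the endothelial list. Scaling to total reads gave 291 higher and 4097 lower. The number of lower genes was 919 with DESeq2, 936 with 1 weight per group and 234 with the length trend removed. Leaving out 1 library gave 510 to 987 higher and 187 to 727 lower genes. With the replicate block, 922 were higher and 511 lower. Same-numbered libraries correlated at 0.045, 0.071 and -0.232 in their deviations from the group means. Deviations of so few libraries cannot show whether libraries of the same number belong together. The difference between mothers had 10 calls with DESeq2 and 0 in the other fits that could give one, which the fit of the 6 libraries could not. Of 191 genes followed through all settings, 154 passed and 93 of these passed in all 6 fits without 1 library. By total reads, 32 of the 191 kept their sign but lost their call, and 8 gained a call. The signs of Npc2 (-0.19), Ldha (-0.25) and Pkm (-0.18) reversed by total reads. The cause of these shifts was not tested.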

Other observations

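Xist, a long RNA that coats the silenced X chromosome, read 1607, 1305 and 1278 in CD_CD and 543, 343 and 496 in CD_WD (log2 fold change -1.62, limma adjusted p = 0.00529), and stood at -0.21 with the length trend removed (limma adjusted p = 0.743). Immediate-early genes, which respond to stimulation and to tissue handling, had 6 of 23 higher and none lower, with a median of 1.21 that turned to -0.23 by total reads (2 higher without CD_CD replicate 1 or 2, 1 without CD_CD replicate 3). Of 24 cell cycle genes, 1 (4.17%) was higher (none without CD_CD replicate 1 or 2 or CD_WD replicate 2, 2 without CD_CD replicate 3), with a median of 0.88 that turned to -0.56 by total reads. Striated muscle genes were lower in 4 of 11 cases and in none without CD_CD replicate 1 or 2, in 1 without CD_WD replicate 1 or 3. Of 10 adipocyte genes, none was called. Their median of 0.36 was 1.55 without CD_WD replicate 1. It turned to -0.12 without CD_CD replicate 2, to -0.26 without CD_WD replicate 2 and to -1.03 by total reads, where 2 were lower. The genes with a difference between mothers in DESeq2 were Abi3bp, Car2, Ung, Hinfp, Dusp14, Trem1, Zbtb8a, Ift80, Spats2l and Figf.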
